A study of Mus musculus with 8 samples.

Results

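The genes described here are 34 genes of fatty acid oxidation and fatty acid uptake, many of them targets of the nuclear receptor PPAR alpha, of 18193 genes that the array's annotation named. They were taken by gene symbol and split into 19 mitochondrial genes, 10 peroxisomal genes and 5 genes of uptake, binding and membrane metabolism. Each gene was read from 1 probe set, the one with the highest mean signal over all arrays among the probe sets that name a single gene. Of the 34 genes, 32 had such a probe set and 31 passed the filter on dim signals. Cpt1b and Ucp2 were not analysed here, and Acox3, the peroxisomal pristanoyl-CoA oxidase, had mean signals of 135 in wild type and 143 in knockout, under the minimum of 200. The lowest signal of any of the 31 tested genes on any array was 536, so none entered the test through 1 group alone.

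Liver RNA was compared between 4 wild-type pups and 4 pups with a knockout of glycerol kinase, all mice on day of life 3. All 8 pups were labelled as male, of the C57BL/6J inbred strain and untreated by any agent named in the labels, and RNA was prepared from each liver separately and hybridised to 1 Affymetrix Mouse 430 2.0 array, so the 4 arrays of a group stood for 4 animals. The labels restrict the knockout to no tissue, and at this age the submitters describe the knockout pups as symptomatic, with low blood glucose and acidosis. Glycerol kinase itself is left without a value here. Signals were the depositors' intensities, scaled on each array to a common target of 500, and a positive difference on the log2(signal + 16) scale means more signal in the knockout; each is given with limma's standard error.

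Mitochondrial beta-oxidation breaks fatty acids down to acetyl-CoA. Long chains enter through the carnitine shuttle, acyl-CoA dehydrogenases of different chain-length preference take the first oxidative step and pass electrons through the electron transfer flavoprotein to the respiratory chain, and hydratase, hydroxyacyl-CoA dehydrogenase and thiolase activities complete each turn. Peroxisomes carry a parallel pathway that shortens very long and branched chains. In the suckling rodent liver both pathways run on milk fat, and PPAR alpha, which binds as a heterodimer with RXR to a pair of AGGTCA half-sites spaced by a single base (a DR1), drives many of their genes.

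Promoter windows from RefSeq (GRCm38.p6), 250 bases before to 50 bases after a transcription start, were found for 29 of the 34 genes, in 30 windows. Acaa2, Cpt1b, Crat, Decr1 and Vnn1 had none. A DR1, searched on both strands as a pair of AGGTCA half-sites with 1 base of any kind between them and up to 2 mismatches, was in 4 of the 30 windows (13.3%), those of Fabp1, Cd36, Etfa and Acox2, against 3.86% of all 32851 windows. Among the 11 windows of members with an unadjusted p under 0.05 in limma's genotype comparison below, 1 held a DR1 (9.09%). The median GC content was 60.5% in the members' windows and 52.67% in all windows. The single half-site AGGTCA was in 20.0% of the members' windows and 16.3% of all windows, and each DR1 was counted whether or not it also held an exact half-site. The windows of 4 members are shown: Fabp1, whose match was the closest with 1 mismatch, Etfa, the member with a match whose arrays did not overlap between the genotypes, and Ehhadh and Crot, which differed in opposite directions in the knockout and held no match. Capitals mark the DR1 match, which lies on the opposite strand in both cases, at bases 184 to 196 of the Fabp1 window and at bases 174 to 186 of the Etfa window. The windows are chr6:71199629-71199928 on the plus strand for Fabp1, and on the minus strand chr9:55512194-55512493 for Etfa, chr16:21787785-21788084 for Ehhadh and chr5:8997097-8997396 for Crot.
Fabp1: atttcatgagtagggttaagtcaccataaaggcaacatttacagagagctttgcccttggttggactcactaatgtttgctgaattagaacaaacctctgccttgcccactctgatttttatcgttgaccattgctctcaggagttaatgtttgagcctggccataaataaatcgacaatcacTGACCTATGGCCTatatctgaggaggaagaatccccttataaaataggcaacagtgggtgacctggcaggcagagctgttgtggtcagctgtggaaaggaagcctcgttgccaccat
Etfa: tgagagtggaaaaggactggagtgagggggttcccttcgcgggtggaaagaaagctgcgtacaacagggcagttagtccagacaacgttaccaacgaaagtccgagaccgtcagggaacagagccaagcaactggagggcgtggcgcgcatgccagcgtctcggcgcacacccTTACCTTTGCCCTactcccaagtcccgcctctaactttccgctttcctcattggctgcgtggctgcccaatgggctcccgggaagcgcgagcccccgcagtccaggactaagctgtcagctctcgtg
Ehhadh: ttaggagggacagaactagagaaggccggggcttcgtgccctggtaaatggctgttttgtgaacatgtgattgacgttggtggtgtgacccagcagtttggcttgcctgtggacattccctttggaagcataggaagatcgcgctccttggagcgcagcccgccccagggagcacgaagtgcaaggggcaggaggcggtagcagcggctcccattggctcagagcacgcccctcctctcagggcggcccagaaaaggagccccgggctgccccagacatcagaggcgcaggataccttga
Crot: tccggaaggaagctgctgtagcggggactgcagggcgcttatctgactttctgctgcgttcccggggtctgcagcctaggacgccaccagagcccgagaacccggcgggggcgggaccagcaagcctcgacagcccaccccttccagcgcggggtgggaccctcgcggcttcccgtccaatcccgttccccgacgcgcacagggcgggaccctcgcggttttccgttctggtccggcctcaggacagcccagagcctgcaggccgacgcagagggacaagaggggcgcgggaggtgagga

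A match describes the letters of a window and not a bound site, and a window without one says only that these letters were not found in it. Hadha and Hadhb, which encode the subunits of the trifunctional protein, lie head to head: their windows on chromosome 5, chr5:30154931-30155230 and chr5:30155003-30155302, overlapped on opposite strands. Their log2 differences were also close, at 0.12 ± 0.12 for Hadha and 0.17 ± 0.09 for Hadhb (SE, 4 arrays a group).

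Some features of the arrays touch every value below. Wild-type array 4 went against its label. The X-inactivation transcript Xist had a signal of 10506 there where the other 7 arrays ranged from 196 to 396. Eif2s3y, a Y-linked gene, had 1.3 where they ranged from 685 to 1164. The main results are therefore given with and without wild-type array 4. Hybridisation and integrity controls separated replicates 1 and 2 of both genotypes from replicates 3 and 4, with a transferrin receptor 3′ to 5′ ratio of 6.50 to 6.72 in the first array set and of 4.21 to 4.83 in the second. No source used here names a batch, and both sets hold 2 arrays of each genotype. For members with an unadjusted p under 0.05 the difference within each set is therefore given beside the pooled one. The pyruvate carboxylase 3′ to 5′ ratio was 7.03 on knockout array 1 and 4.93 on knockout array 2, against 2.06 to 3.46 on the other arrays. Median signals were 147 to 175. Hepatocyte markers were high on every array except for Ass1, which ranged from 184 to 944. Summed signals for 9 of the 12 listed genes were 152577 to 195218 in wild type and 174495 to 229974 in knockout. Mean signals were under 200 for 7 of 8 striated muscle markers and for Adipoq, Cidec, Lep and Ucp1 among the adipocyte markers.

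No member passed an adjusted p of 0.05 in limma's test over 20395 probe sets, in which 0.147% of all probe sets were called higher and 0.152% lower in the knockout. At an unadjusted p under 0.05, 11 of the 31 tested members were higher (35.5%) and 1 was lower, against 7.12% and 7.32% of all probe sets. The members were chosen with earlier results of these data known, so these shares support no direction by themselves. The median difference of the 31 members was 0.18, with 25 above 0 and 6 below, beside a median of -0.03 and 45.8% above 0 for all probe sets tested. Signals of the genotypes did not overlap for 7 members that were higher in the knockout and for 1 that was lower, Crot, against 4.47% and 4.85% of all probe sets. Without wild-type array 4 the members' median was 0.19, again with 25 above 0, and 1 member, Ehhadh, passed the test. In that fit 6 of the 20395 probe sets were called, beside 61 with all arrays. With the array set as a block, 2 members passed, Acad11 and Vnn1, both higher, where 0.505% of all probe sets were called higher and 0.397% lower.

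**Figure D1:**
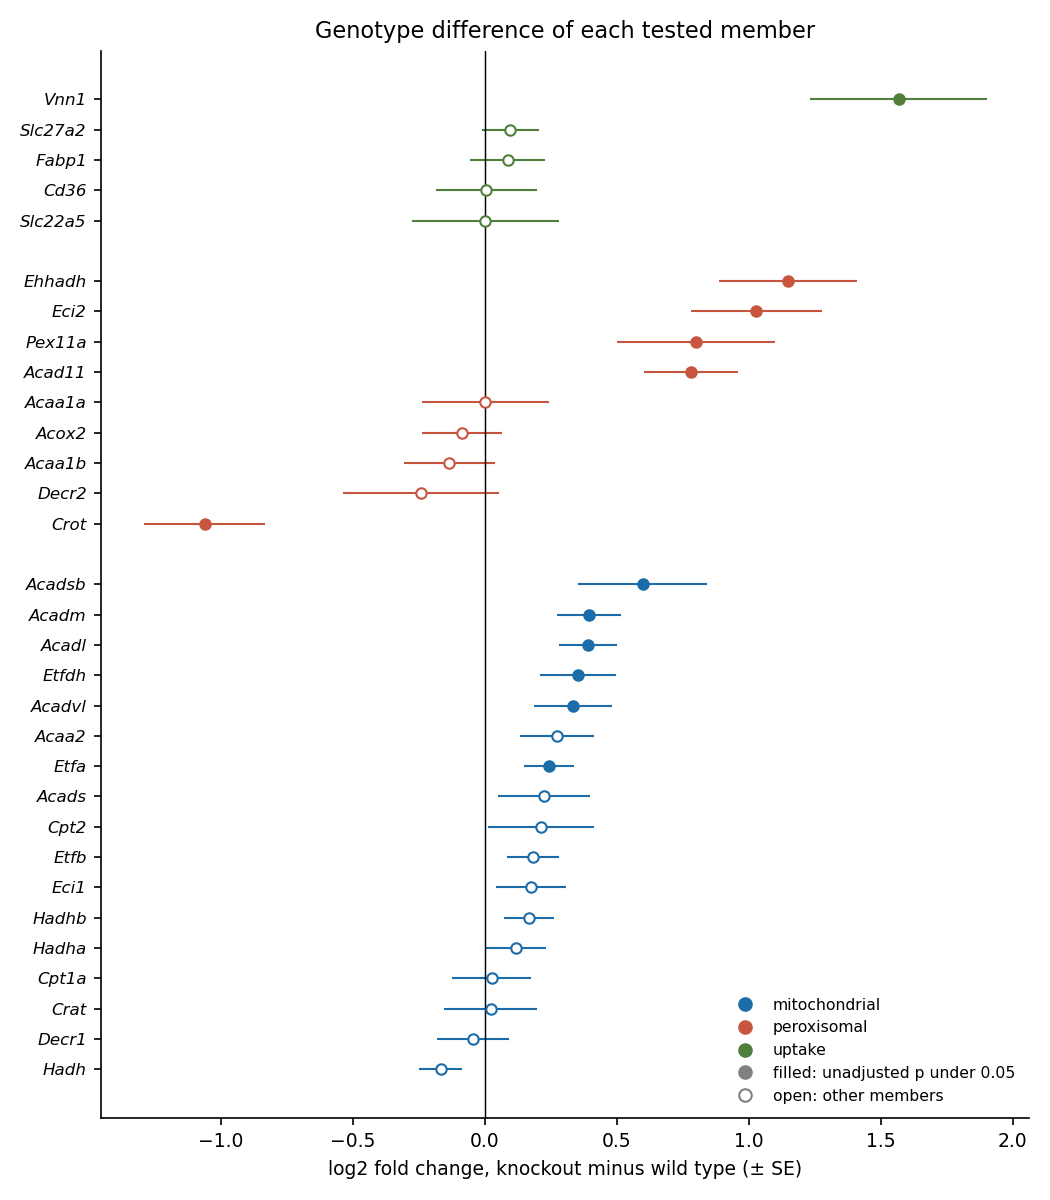
Log2 fold change of each of the 31 tested members (x axis, knockout minus wild type; bars, SE; 4 arrays a group), by group, with filled points for an unadjusted p under 0.05. Vnn1, Ehhadh, Eci2, Pex11a and Acad11 lie farthest to the right and Crot alone lies near -1, while most mitochondrial genes lie between 0 and 0.6.

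The peroxisomal genes were the most divided group. Of 9 tested, 4 were higher and 1 lower at an unadjusted p under 0.05, against 7.12% and 7.32% of all probe sets, the others lay between -0.24 and 0.00, and the group's median was 0.00. Ehhadh, the bifunctional enzyme that carries out the hydration and dehydrogenation steps of peroxisomal beta-oxidation, had signals of 6017, 4329, 4390 and 10982 on wild-type arrays 1 to 4 and of 15622, 12841, 13122 and 11577 on knockout arrays 1 to 4. All knockout arrays lay above all wild-type arrays, and the wild-type array closest to them was array 4, the one at odds with its label. The log2 difference was 1.15 ± 0.26 (2.07-fold between means, adjusted p = 0.0955), 1.47 within the first array set and 0.83 within the second. Without wild-type array 4 it was 1.44 with an adjusted p of 0.0326, in a range of 0.0107 to 0.383 over 23 alternatives.

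Eci2, the peroxisomal enoyl-CoA isomerase used for unsaturated chains, had wild-type signals of 2859, 2910, 2749 and 3128 and knockout signals of 10655, 5733, 5181 and 3958. The wild-type arrays were nearly level, the knockout arrays spread over a wide range above them, and knockout array 1 was far the highest. The log2 difference was 1.03 ± 0.25 (2.19-fold, adjusted p = 0.107), and it was 1.43 in the first array set and 0.62 in the second. Leaving out knockout array 4, the lowest of its group, gave an adjusted p of 0.0368, in a range of 0.0271 to 0.280 over the alternatives. Without wild-type array 4 the adjusted p was 0.179.

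Acad11, an acyl-CoA dehydrogenase that acts on long-chain substrates, had signals of 4448, 5971, 4455 and 5142 in wild type and of 11594, 9157, 7573 and 6635 in knockout. The groups did not overlap, and the knockout arrays of the first set were above those of the second. Its log2 difference was 0.78 ± 0.18 (1.75-fold, adjusted p = 0.0957), and the fit with the array set as a block gave an adjusted p of 0.0481, in a range of 0.0377 to 0.235. A second, dimmer probe set of Acad11 did pass: wild-type signals were 3852, 4081, 3842 and 4295, knockout signals were 9220, 7368, 7852 and 5927, and it rose by 0.90 ± 0.14 (adjusted p = 0.0425, 0.00543 to 0.169 over the alternatives). Leaving out any single array other than knockout array 4 ended that call.

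Crot went the other way. It encodes the peroxisomal carnitine octanoyltransferase, which prepares the shortened chains for export to mitochondria. Wild-type signals were 14124, 13721, 11607 and 10913, and knockout signals were 3558, 6680, 6227 and 8662. Every knockout array lay below every wild-type array, and knockout array 1, the highest of its group for Ehhadh, Eci2, Acad11 and Pex11a, was the lowest here. The log2 difference was -1.06 ± 0.23 (0.499 of the wild-type mean, adjusted p = 0.0853), -1.51 in the first array set and -0.61 in the second. Without knockout array 4, the one closest to wild type, the adjusted p was 0.0317, in a range of 0.0176 to 0.246. Without wild-type array 4 it was 0.136. In liver tissue as a whole, fewer cells of a type and less RNA per cell cannot be told apart.

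Pex11a, which promotes peroxisome division, had wild-type signals of 864, 632, 766 and 636 and knockout signals of 2125, 1649, 1045 and 694. Knockout array 4 lay inside the wild-type range and the other knockout arrays above it. The log2 difference was 0.80 ± 0.30 (1.90-fold, adjusted p = 0.263), 1.32 in the first array set and 0.28 in the second, and a second probe set gave 0.91 ± 0.29. The other tested peroxisomal genes had an unadjusted p over 0.05 on their brightest probe set: Acox2, the branched-chain acyl-CoA oxidase, -0.09 ± 0.15, Acaa1b, a thiolase, -0.14 ± 0.17, and Decr2, the peroxisomal dienoyl-CoA reductase, -0.24 ± 0.30. For Acaa1a, the near-identical sister thiolase, the brighter probe set gave 0.00 ± 0.24 and the other 0.61 ± 0.27, and which of the 2 thiolases such probes measured is uncertain.

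**Figure D2:**
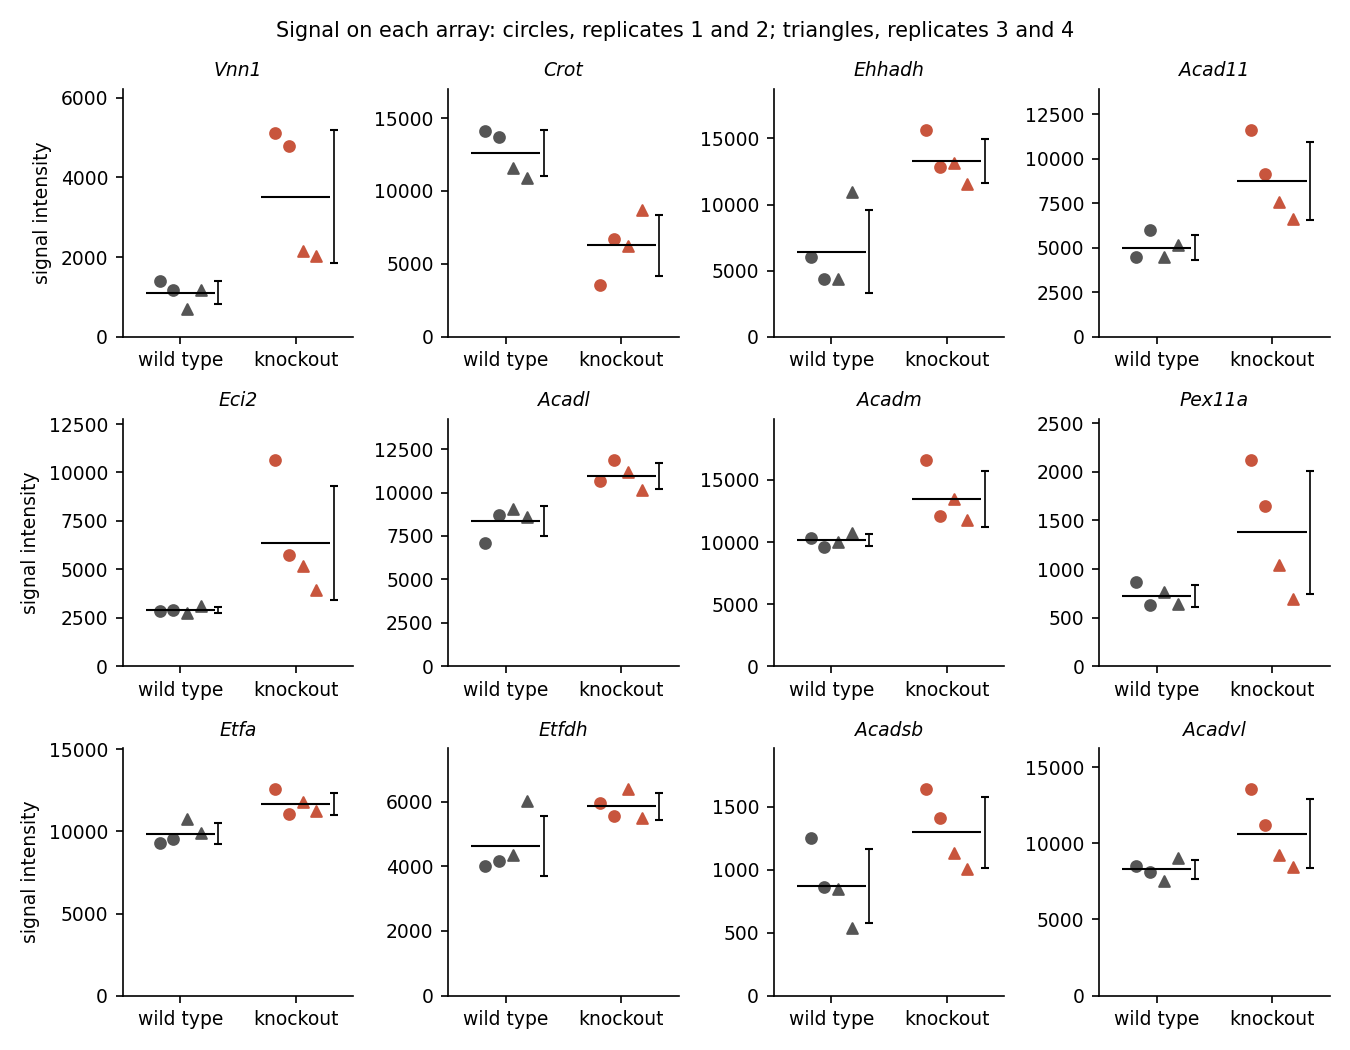
Signal intensity (y axis, linear from 0) on each array of the 12 members with an unadjusted p under 0.05, with the group mean (line) and SD (bar, n = 4). Ehhadh, Eci2, Acad11, Vnn1, Acadl, Acadm and Etfa show no overlap between the genotypes with the knockout higher, and Crot none with the knockout lower; on most panels knockout array 1 is the highest knockout array and array 4 the lowest.

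Among the mitochondrial genes the differences were smaller and mostly the same in sign. Of 17 tested, 6 were higher and 0 lower at an unadjusted p under 0.05, against 7.12% and 7.32% of all probe sets, 15 lay above 0, and the median was 0.21. That median was 0.14 without knockout array 1, 0.33 in the first array set and 0.08 in the second. Of the 6 genes, 4 were among the 5 tested acyl-CoA dehydrogenases and 2 among the 3 tested electron transfer genes, and all 8 of those genes lay above 0.

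Acadm, the medium-chain acyl-CoA dehydrogenase, had wild-type signals of 10330.4, 9581, 9976 and 10732 and knockout signals of 16625, 12059.6, 13498 and 11733. Acadl, the long-chain enzyme, had 7107, 8717, 9062 and 8613 in wild type and 10679, 11886, 11157 and 10141 in knockout. Neither gene overlapped between the genotypes, and the ratios of means were 1.33 for Acadm and 1.31 for Acadl. The log2 differences were 0.40 ± 0.12 for Acadm (adjusted p = 0.182) and 0.39 ± 0.11 for Acadl (adjusted p = 0.148). Within the array sets they were 0.51 and 0.28 for Acadm, and 0.52 and 0.27 for Acadl.

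Acadvl, the very-long-chain enzyme of the inner membrane, had 8513, 8134, 7505 and 9025 in wild type and 13547, 11203, 9251 and 8464 in knockout. Its knockout array 4 lay among the wild-type arrays, and its log2 difference of 0.33 ± 0.15 (adjusted p = 0.337) was 0.57 in the first array set and 0.10 in the second. Acadsb, the short/branched-chain enzyme that also serves isoleucine breakdown, had 1253, 859, 845 and 536 in wild type and 1637, 1408, 1133 and 1006 in knockout. Wild-type array 1 lay above 2 of the knockout arrays. The log2 difference of Acadsb was 0.60 ± 0.25 (1.48-fold, adjusted p = 0.308) and 0.39 without wild-type array 4, the lowest of its group. Of the mitochondrial genes with an unadjusted p under 0.05 Acadsb was the one with a larger difference in the second array set (0.65) than in the first (0.54). Acads, the short-chain enzyme, differed by 0.22 ± 0.17.

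The electron transfer genes, which take electrons from these dehydrogenases, were all above 0. Etfa, the alpha subunit of the electron transfer flavoprotein, had 9317, 9539, 10746 and 9885 in wild type and 12571, 11091, 11819.5 and 11242 in knockout. Its genotypes did not overlap, with a log2 difference of 0.24 ± 0.10 (adjusted p = 0.285), 0.32 in the first array set and 0.16 in the second. Etfdh, the flavoprotein's dehydrogenase, had 4008, 4175, 4350 and 6012 in wild type and 5960, 5571, 6383 and 5489 in knockout. There wild-type array 4 lay above 3 of the 4 knockout arrays. The log2 difference of Etfdh was 0.35 ± 0.14 (adjusted p = 0.304) and 0.48 without that array. Within the array sets it was 0.49 and 0.21. Etfb, the beta subunit, differed by 0.18 ± 0.10.

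In the carnitine shuttle and the later steps of the spiral no member had an unadjusted p under 0.05 on its brightest probe set, and for Crat, Acaa2 and Hadh another probe set did. Cpt1a, the entry enzyme of the shuttle, had signals of 5973 to 9902 in wild type and of 7521 to 8879 in knockout, with a log2 difference of 0.03 ± 0.15, and its 2 other probe sets gave -0.23 and -0.26. Crat, the carnitine acetyltransferase, gave 0.02 ± 0.18 on its brightest probe set and 0.57 ± 0.17 on another (adjusted p = 0.178), so its probe sets disagreed. Acaa2, the mitochondrial thiolase, gave 0.27 ± 0.14, with 0.27 and 0.36 on its other probe sets. Hadh, the short-chain hydroxyacyl-CoA dehydrogenase, was the mitochondrial member farthest below 0, at -0.17 ± 0.08 on its brightest probe set. Its other probe sets gave -0.32 ± 0.10 (adjusted p = 0.182) and -0.28 ± 0.23, and on the first of these the unadjusted p was under 0.05 and every knockout array lay below every wild-type array. Eci1 and Decr1, the auxiliary enzymes for unsaturated chains, gave 0.18 ± 0.13 and -0.05 ± 0.14.

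Of the 5 genes of uptake, binding and membrane metabolism, 1 had an unadjusted p under 0.05. Vnn1, the pantetheinase that releases the coenzyme A precursor pantothenate and is a strong PPAR alpha target in mouse liver, had wild-type signals of 1397, 1169, 688 and 1179 and knockout signals of 5120, 4793, 2142 and 2023. All knockout arrays lay above all wild-type arrays, and the knockout arrays of the first set stood well above those of the second. The log2 difference was 1.57 ± 0.34 (3.18-fold between means, adjusted p = 0.0826), which was farther from 0 than that of any other member, and a second probe set gave 1.64 ± 0.46. It was 1.94 in the first array set and 1.19 in the second. The fit with the set as a block gave an adjusted p of 0.0184, in a range of 0.00379 to 0.227. Without wild-type array 4 the adjusted p was 0.149.

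The remaining 4 genes of this group lay near 0 on their brightest probe sets. Slc27a2, a fatty acid transport protein with very-long-chain acyl-CoA synthetase activity, differed by 0.10 ± 0.11, and Cd36, the fatty acid translocase, by 0.01 ± 0.19. The other probe sets of Cd36 gave -0.27 ± 0.20 and -0.16 ± 0.22. Fabp1, the abundant liver fatty acid binding protein whose promoter window held the closest DR1 match, had signals of 21698, 27150, 36497 and 32783 in wild type and of 30992, 31127, 29202 and 31856 in knockout. The wild-type arrays of Fabp1 spread on both sides of the knockout arrays, and the difference was 0.09 ± 0.14. Slc22a5, the carnitine transporter, differed by 0.00 ± 0.28.

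**Figure D3:**
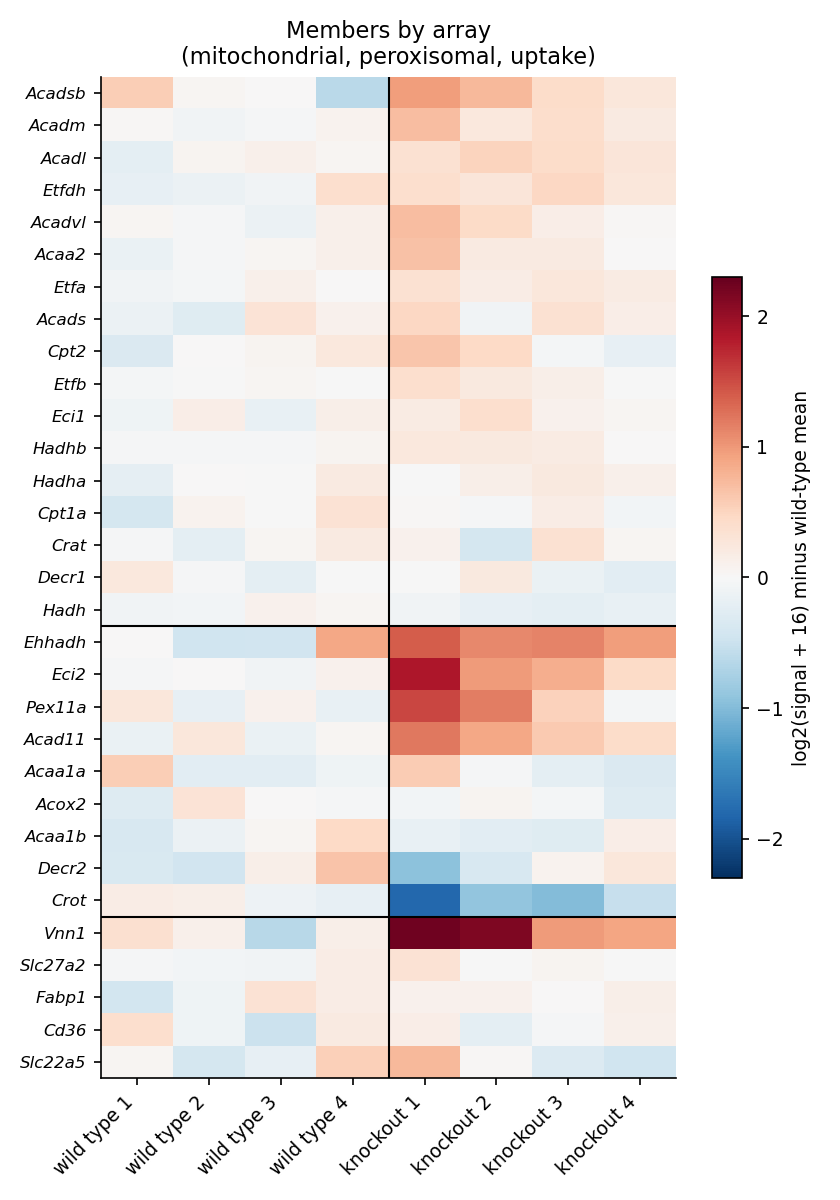
Log2(signal + 16) of each tested member (rows, by group) on each array (columns) minus its wild-type mean; red is above and blue below. Knockout array 1 has the deepest colours in both directions, from Vnn1, Eci2 and Pex11a above the wild-type mean to Crot and Decr2 below it, and knockout array 4 the palest for most of the members that differ.

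The knockout arrays were graded for these genes. The median over the 31 members of the deviation from the wild-type mean was 0.36, 0.20, 0.17 and 0.04 on knockout arrays 1 to 4, and -0.04, -0.02, -0.02 and 0.12 on wild-type arrays 1 to 4. Knockout array 1 was the highest of the knockout arrays for 19 of the 31 members and array 4 the lowest for 20, where the same held for 6188 and 5051 of all 20395 probe sets. Without knockout array 1 the median difference of the members was 0.14, and without knockout array 4 it was 0.22. Without knockout array 4, Eci2, Acad11 and Vnn1 passed the test as higher and Crot as lower, and without array 1 no member did. The calls over all 20395 probe sets moved as well, from 61 with all arrays to 334 without knockout array 4 and 22 without knockout array 1. The pyruvate carboxylase ratio was highest on the same knockout arrays 1 and 2. With it as a covariate the members' median was 0.14 and Vnn1 passed the test, where 72 of all probe sets were called. The part of this ratio in the result was not tested beyond that fit.

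The differences also varied between the array sets, though no member was called in the test of that change. The median difference of the members was 0.33 in the first set, with 24 of 31 above 0, and 0.08 in the second, with 19 above 0. All 12 members with an unadjusted p under 0.05 kept their direction in both sets. The test of the difference between the sets gave 5 members at an unadjusted p under 0.05, where 9.92% of all probe sets were, and none at an adjusted p of 0.05 (lowest 0.484), where 0.00981% of all probe sets were. The second set minus the first was below 0 for 26 of the 31 members and for 47.4% of all probe sets.

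Those 5 members, none of them called after adjustment, were Cpt2, Crot, Pex11a, Fabp1 and Slc22a5. Cpt2, the inner-membrane enzyme of the carnitine shuttle, had signals of 2452, 3104, 3221 and 3667 in wild type and of 4802, 4214, 2977 and 2696 in knockout. Knockout arrays 1 and 2 were above every wild-type array and arrays 3 and 4 below wild-type arrays 2 to 4. Its log2 difference was 0.70 in the first set and -0.28 in the second, a change of -0.98 ± 0.25 between sets. Slc22a5 likewise gave 0.57 and -0.56, and Fabp1 0.36 and -0.18. Hepatocyte markers moved with the sets in the same direction for 8 of 9, and Ass1 moved the other way. All 9 measured were above 0 in the pooled fit with a median of 0.11, which was 0.32 in the first set and -0.08 in the second. For 9 tested erythroid markers the median was -0.10, and it was -0.55 in the first set and 0.18 in the second, with summed signals over 10 measured markers of 56485 to 70345 in wild type and 49539 to 75224 in knockout. The erythroid marker Hba-a1 had a mean signal under 200. For 8 macrophage markers the median of 0.18 was 0.39 in the first set and -0.06 in the second, knockout array 1 was the highest knockout array for all 8, and summed signals were 22639 to 29358 in wild type and 24044 to 37649 in knockout. For 8 endothelial markers the median of 0.00 was 0.21 in the first set and -0.26 in the second, knockout array 1 was the highest for 7, and summed signals were 9244 to 12707 and 9344 to 15570. Summed signals of 7 stellate markers did not overlap between the genotypes, at 9311 to 15891 in wild type and 7588 to 8963 in knockout. Of the 6 tested, 4 were below 0 and 2 above, and each overlapped between the genotypes on its own. Their median of -0.23 was -0.16 in the first set and -0.29 in the second. For 10 granulocyte markers summed signals were 80264 to 99778 in wild type and 68582 to 94818 in knockout, with a median difference of -0.20. The part of these cell populations in the members' differences was not tested.

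**Figure D4:**
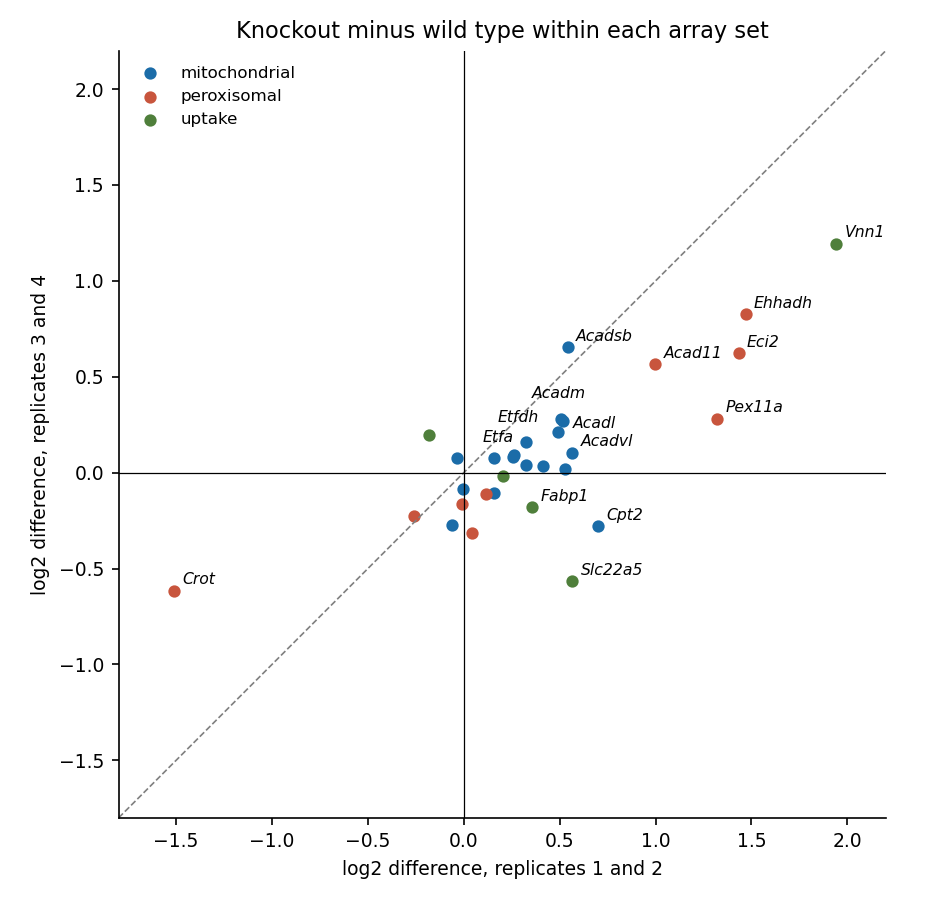
Log2 difference between knockout and wild type of each tested member within replicates 1 and 2 (x axis) and within replicates 3 and 4 (y axis); the dashed line marks equal differences. Vnn1, Ehhadh, Eci2, Acad11 and Pex11a are positive in both sets but below the line, Crot is negative in both and above it, and Cpt2, Fabp1 and Slc22a5 are positive in the first set and negative in the second.

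Genes around the pathway that were not among the 34 were read from the same fit. Of 17 listed transcriptional regulators, 13 were tested, none was called, and 6 were higher and 0 lower at an unadjusted p under 0.05, against 7.12% and 7.32% of all probe sets. Their median of 0.32 was 0.09 without knockout array 1, 0.13 with the pyruvate carboxylase covariate, 0.75 in the first array set and 0.23 in the second. The 4 with the smallest p were Ppargc1a, a coactivator of PPAR alpha, at 1.42 ± 0.38 (adjusted p = 0.134), Rxra, the heterodimer partner, at 0.66 ± 0.21, Lpin1, a phosphatidate phosphatase that also acts as a coactivator, at 1.64 ± 0.51, and Esrra, an orphan receptor driven by Ppargc1a, at 0.80 ± 0.27. Their knockout arrays followed the same grading, with Lpin1 signals of 9718, 5122, 3753 and 1155 on knockout arrays 1 to 4 against 943 to 1768 in wild type. Ppara itself, named here after its values were seen, had signals of 2061 to 2477 in wild type and of 1845 to 2166 in knockout, and a difference of -0.19 ± 0.12 (adjusted p = 0.520).

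Of 33 other listed oxidation enzymes, 27 were tested and none was called, with 8 higher and 1 lower at an unadjusted p under 0.05, against the same shares of all probe sets. The median of 0.25 was 0.14 without knockout array 1, 0.29 in the first array set and 0.01 in the second. Acsl4, an acyl-CoA synthetase, gave 0.70 ± 0.19, Ech1, a dienoyl-CoA isomerase, 0.50 ± 0.14, Slc27a5, a bile acid and very-long-chain acyl-CoA synthetase, 0.54 ± 0.19, and Abcd2, a peroxisomal importer of very long chains, 0.40 ± 0.15, with adjusted p-values of 0.133 to 0.263. The first 3 of these did not overlap between the genotypes.

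The list of other PPAR alpha targets held the genes that passed. Of 43 listed, 33 were tested, and 3 rose and 1 fell, against 0.147% and 0.152% of all probe sets. The list was chosen with earlier results of these data known, so its shares support no direction by themselves. At an unadjusted p under 0.05, 13 were higher and 3 lower, against 7.12% and 7.32%. The list's median of 0.17 was 0.01 without knockout array 1, 0.06 with the pyruvate carboxylase covariate, 0.49 in the first array set and -0.05 in the second. Acot1, the cytosolic acyl-CoA thioesterase, had signals of 1062, 821, 476 and 705 in wild type and 5385, 3665, 2256 and 1884 in knockout, and rose by 2.02 ± 0.33 (adjusted p = 0.0466). Acot2, its mitochondrial relative, rose by 0.99 ± 0.15 (adjusted p = 0.0331), from 852 to 1181 in wild type to 1733 to 2069 in knockout. Acot1 and Acot2 are close paralogs, so which of them each probe set measured is uncertain. Retsat, a retinol saturase, had 2373, 2521, 2420 and 2798 in wild type and 9170.4, 7579, 5603 and 4161 in knockout, and rose by 1.33 ± 0.22 (adjusted p = 0.0466).

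G0s2, the inhibitor of adipose triglyceride lipase, fell by 1.09 ± 0.17 on the log2 scale (adjusted p = 0.0419). Wild-type signals were 4015, 3606, 3363 and 4416, and knockout signals were 1801, 2393, 1506 and 1604. Here knockout array 2 was the highest of its group and array 3 the lowest, and the difference was -0.87 in the first array set and -1.30 in the second. Without wild-type array 4 the adjusted p-values of these 4 genes were 0.0519 to 0.0944, so none passed, at log2 differences of 2.00 for Acot1, 1.10 for Acot2, 1.37 for Retsat and -1.02 for G0s2. Leaving out any single array other than knockout array 4 ended the calls of Retsat and G0s2, and the same held for Acot1 and Acot2 except for wild-type array 1, with adjusted p-values of up to 0.169. With the array set as a block all 4 passed, with adjusted p-values of 0.00571 to 0.0235.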

How the data were processed

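RNA from 8 livers was measured on Affymetrix Mouse 430 2.0 arrays. Per the labels, the deposited values are linear signal intensity from GCOS 1.2, scaled to 500 on each array; the table has no detection calls and gives no depth, and the number of arrays limits the precision. That scaling was kept. Groups and replicate numbers came from the sample titles. Of 45101 probe sets, 64 controls were left out, 34945 named 1 gene by the platform annotation, 932 several and 9160 none. The 20395 that reached a signal of 200 on 4 or more arrays were tested on log2(signal + 16) with limma 3.58.1 in R 4.3.3 (lmFit, eBayes with trend, two-sided, Benjamini-Hochberg over all tested), checked on simulated data. Array sets were replicates 1 and 2 against 3 and 4.

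Every member may be named; those with an unadjusted p under 0.05 are given by array, and other listed genes where called, or else the 4 of a list with the smallest p. The members and all lists were chosen with earlier results of these data known, so no list supports a direction by itself.

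Alternatives left out each array, set scaling, filter, pseudocount, weights, blocks and the choice of probe set differently.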

Additional observations from a re-analysis of the deposited data

Results flagged for a closer look

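The trifunctional protein subunit Hadhb was the 1 member flagged by Dixon's test, which sets an array's gap against its group's range. Its signal was 10816 on wild-type array 4 and 10118 to 10149 on the other 3 wild-type arrays. The gap took up 0.955 of the group's range, above Dixon's critical value for groups of this size. In signal, wild-type array 4 lay much farther off for Ehhadh, at 10982 against 4329 to 6017, without a flag. In all, 62 groups of 4 arrays were checked, and chance alone marks about 1 group in 20. Without that array the log2 difference of Hadhb was 0.19, beside 0.17 with it.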

How the results depend on the processing

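Of the 31 tested members, 25 lay above 0 in the reported fit, 21 without knockout array 1, 22 with quantile scaling, 23 with the pyruvate carboxylase covariate, and 24 and 19 in the first and second array sets alone. In 8 of 24 alternatives at least 1 member passed an adjusted p of 0.05: Vnn1 in 7, Ehhadh and Acad11 in 3 each, Eci2 and Crot in 2 each. Members called higher, 0 in limma's reported fit, numbered 2 with the array set as a block, 2 with that block and without wild-type array 4, 4 with array weights, 1 in the first array set alone, 1 with the pyruvate carboxylase covariate, and 0 to 3 leaving out 1 array. Members called lower, also 0 in that fit, numbered 1 with array weights and 0 to 1 leaving out 1 array. The members' median of 0.18 was 0.33 in the first array set alone and 0.14 to 0.22 leaving out 1 array, and its range over all alternatives was 0.08 to 0.33. Calls over all probe sets, 61 in the reported fit, were 184 with the set block, 154 with that block and without wild-type array 4, 749 with array weights, 30 and 2 in the first and second sets alone, 33 with a gene's probe sets averaged, 21 without a filter, 22 with a minimum signal of 100, 18 without an intensity trend, and 2 to 334 leaving out 1 array, the last without knockout array 4. Probe sets whose difference changed between array sets, 2 of 20395, were 0 without wild-type array 4 (983 at an unadjusted p under 0.05 in limma's test). The causes were not tested. Correlations did not settle whether replicate numbers pair the samples. Same-number correlations were 0.218, 0.404, 0.339 and 0.051. Knockout replicates 1 to 3 correlated best with the wild-type array of the same number, and knockout replicate 4 with wild-type replicate 3 (0.374). With the replicate block 56 probe sets and 1 member, Vnn1, were called. Quantile scaling gave a members' median of 0.09 and moved that of all probe sets from -0.03 to -0.01.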
